A study of Mus musculus with 11 samples.

Results

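The Toll-like receptors measured in these lacrimal glands, with a chaperone and an adaptor that they depend on, are 10 genes. They are the cell surface receptors Tlr1, Tlr2, Tlr4 and Tlr6, the endosomal receptors Tlr3, Tlr7, Tlr8 and Tlr9, the chaperone Unc93b1 and the adaptor Myd88. The genes were taken by name, and all 10 were found among the 19058 genes of the deposited table and among the 13937 genes tested. RNA sequencing had been done on whole lacrimal glands of 11 male NOD mice, a strain that develops autoimmune inflammation of this gland, with 3 WT, 5 Tlr7 KO and 3 Ifnar1 KO animals and 1 library for each. The Tlr7 KO mice carried a 2-base deletion in Tlr7 that CRISPR/Cas9 editing of NOD embryos had produced, and all came from a single allele, crossed back to the strain 1 time and then bred to homozygosity. The Ifnar1 KO mice (NOD.Ifnar1em16/em16) lack a chain of the type I interferon receptor. WT and Tlr7 KO mice were 20 to 22 weeks old, and the age of the Ifnar1 KO mice is not given in the sources used here. The study had set aside a further Ifnar1 KO gland that clustered with WT and was as inflamed as WT. That gland was not analysed here, so membership of the Ifnar1 KO group was in part decided by the outcome. Both knockouts were compared with the same 3 WT mice.

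Toll-like receptors bind molecules that mark microbes or damaged cells. TLR2 pairs with TLR1 or TLR6 to bind lipopeptides and TLR4 binds lipopolysaccharide at the cell surface, while in endosomes TLR3 binds double-stranded RNA, TLR7 and TLR8 bind single-stranded RNA and its breakdown products, and TLR9 binds DNA with unmethylated CpG. UNC93B1 carries the endosomal receptors out of the endoplasmic reticulum, and MyD88 passes on the signal of every one of these receptors except TLR3. In the mouse, TLR7 and TLR9 are known above all from B cells and plasmacytoid dendritic cells, and TLR2, TLR4 and TLR8 from myeloid cells. The comparisons ask how the other receptors stand in glands that lack TLR7 or the interferon receptor that acts downstream of it.

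The libraries held 20512315 to 28814250 counts. Lacrimal gland epithelium was well represented, and its markers Mup4 and Lpo averaged 29958 and 1594 CPM (a gene's counts scaled to a common library size, with the TMM factors of edgeR) in WT. Some libraries stood apart within their group. WT 2 had lower summed B cell markers than WT 1 and WT 3, at 90.3 CPM against 317 and 276 CPM, and lower T cell, macrophage and dendritic cell sums, but the highest plasma cell sum of the 3, at 452 CPM. Skeletal muscle markers summed to 351 CPM in WT 1, 253 CPM in WT 2 and 248 CPM in Tlr7 KO 4, 9.86 CPM in Ifnar1 KO 2 and at most 0.408 CPM in the other 7 libraries. Because whole glands were sequenced, fewer cells of a type and less RNA per cell cannot be told apart in any of the values below.

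**Figure D1:**
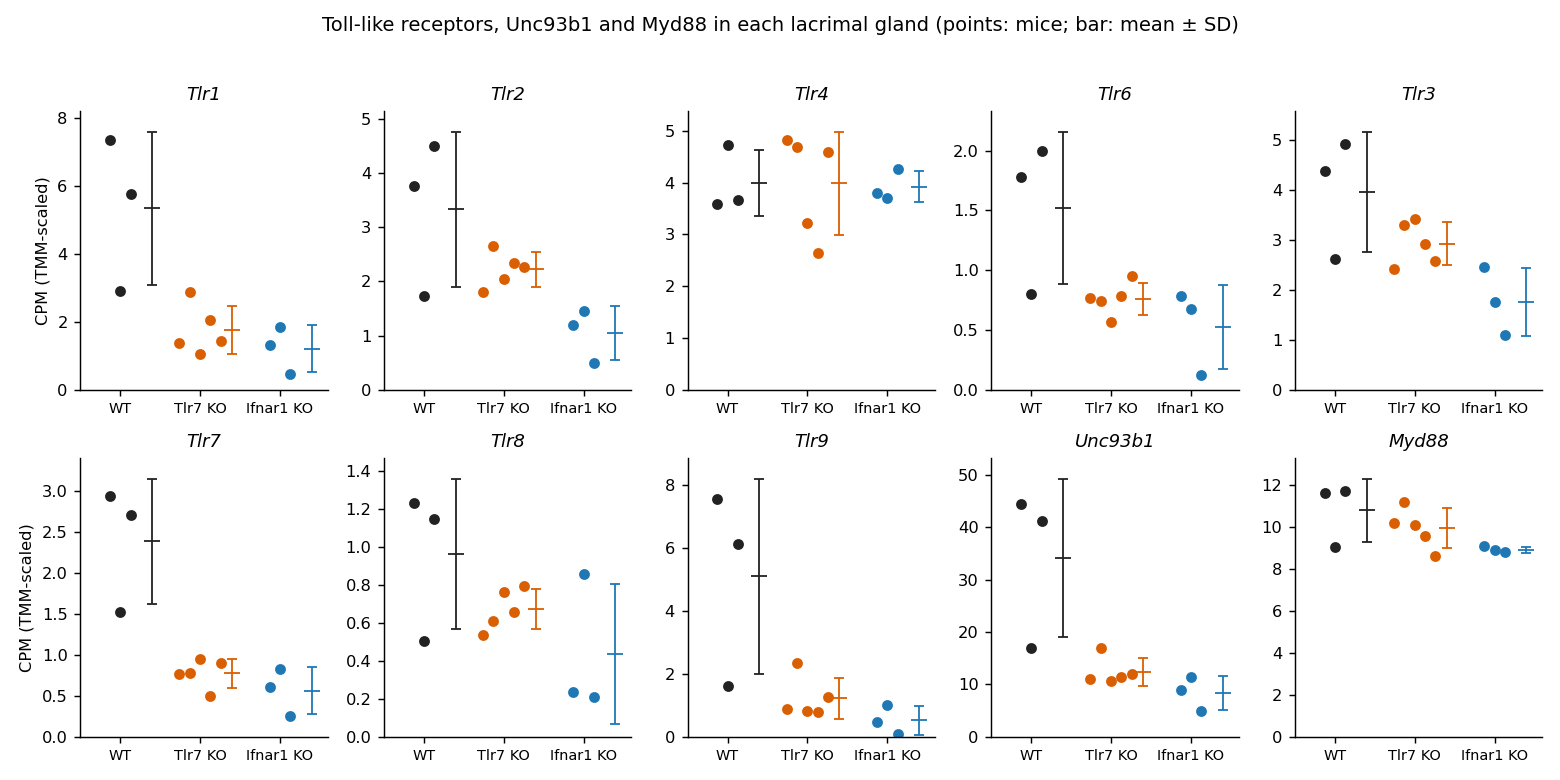
TMM-scaled CPM of the 10 genes in every mouse, with a panel and a y axis from 0 for each gene; points are mice in the order of their replicate numbers, and the bar beside them is the group mean ± SD (WT n = 3, Tlr7 KO n = 5, Ifnar1 KO n = 3). WT 2, the second black point, is the lowest WT mouse for every gene but Tlr4, which lies at 2.64 to 4.82 CPM in all 11 glands.

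In Tlr7 KO glands, 5 of the 10 genes were lower than in WT, namely Tlr9, Tlr7, Tlr1, Unc93b1 and Tlr6, and none was higher. A gene was called at an adjusted p under 0.05 in edgeR's quasi-likelihood test, two-sided and with Benjamini-Hochberg adjustment over all 13937 genes. By that rule 17.1% of all genes tested were lower and 15.3% higher, and 32.5% were called in all. The members had a median log2 fold change of -0.81, beside -0.04 over all genes tested. In Ifnar1 KO glands, 5 of the 10 were lower than in WT, namely Tlr9, Tlr1, Tlr7, Unc93b1 and Tlr2, and none was higher. There 12.1% of all genes tested were lower, 6.92% were higher and 19% were called, and the medians were -1.62 for the members and -0.02 over all genes. Of the 10 genes, 7 had every Ifnar1 KO mouse below every WT mouse, which 21.1% of all genes tested did, and 2 had every Tlr7 KO mouse below every WT mouse, which 14.2% did. No member had every knockout mouse above every WT mouse, as 20.7% of all genes did in Ifnar1 KO and 16.6% in Tlr7 KO. Between the knockouts no member was called by edgeR, 2 had an unadjusted p under 0.05, and DESeq2 called 1, Tlr2. In that comparison 1.51% of all genes tested were called, 0.768% lower and 0.746% higher in Ifnar1 KO. Tlr2 was the member with every Ifnar1 KO mouse below every Tlr7 KO mouse, as were 5.47% of all genes, while 5.24% had every Ifnar1 KO mouse above and no member did.

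Calls of members depended on single mice. Without WT 2, 8 of the 10 were called in each knockout against WT, while the share of all genes called rose to 49% in Tlr7 KO and 35% in Ifnar1 KO. In the Tlr7 KO comparison 3 were called without WT 1 and 3 without WT 3, while the share of all genes called fell to 20.3% and 19.5%. In the Ifnar1 KO comparison 0 were called without WT 1, without WT 3, without Ifnar1 KO 1 or without Ifnar1 KO 3, and 22 or 88 genes in all were then called without WT 1 or without WT 3. Leaving out Ifnar1 KO 1 or Ifnar1 KO 3 left 0 genes called in the whole table by edgeR, although 4387 and 3801 genes then had an unadjusted p under 0.05.

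**Figure D2:**
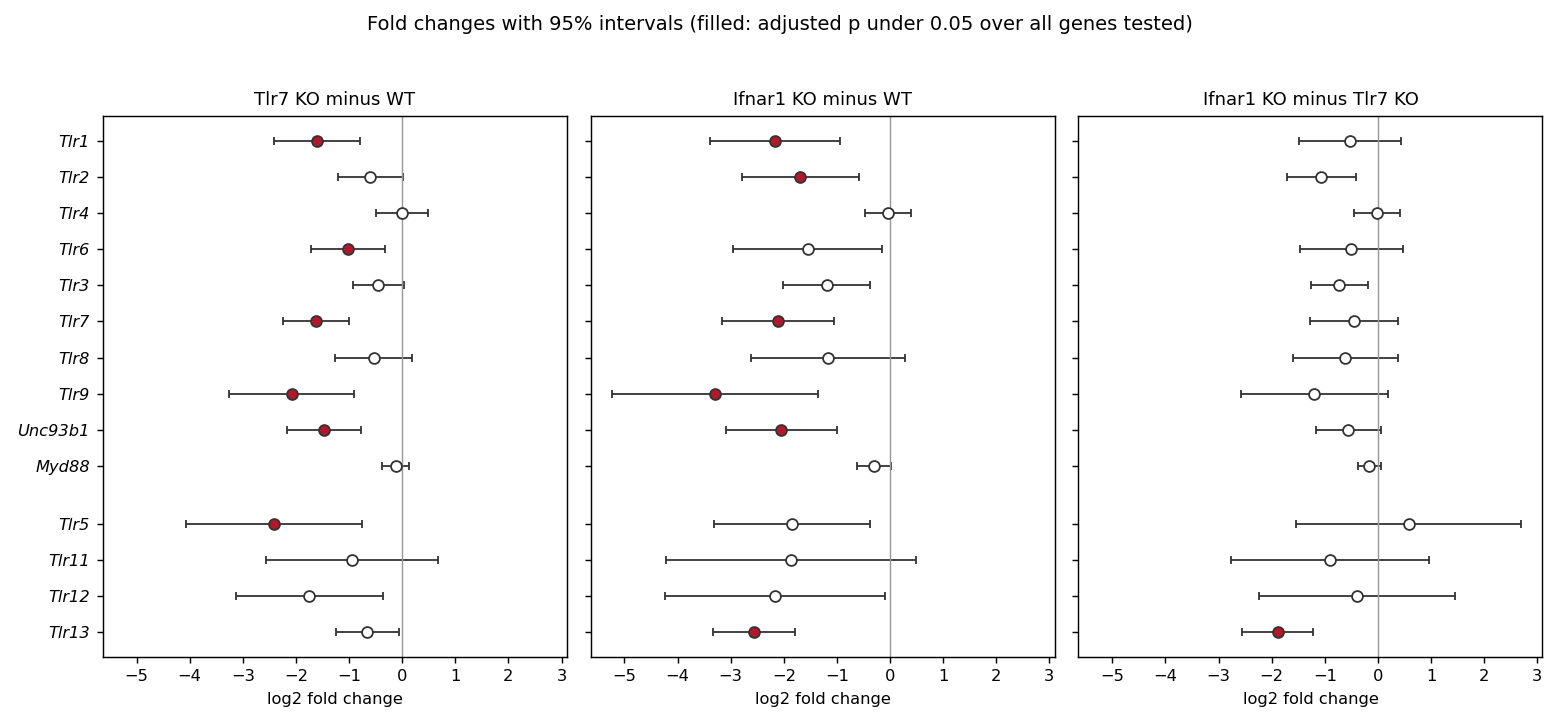
Log2 fold change (x axis) of the 10 genes and, below the gap, of the other 4 mouse Toll-like receptors in 3 comparisons; points are edgeR estimates, bars are 95% intervals and filled points have an adjusted p under 0.05. The intervals of Tlr4 and Myd88 against WT span 0 and reach no further than -0.62, while the estimates of Tlr9 are -2.08 and -3.30.

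The bases before the transcription start are shown for 3 genes. Tlr9 had the lowest fold change of the 10, Tlr6 and Myd88 are the members with a window that holds the core of an interferon-stimulated response element, and of these Tlr6 was called in Tlr7 KO glands while Myd88 was called in neither. Tlr6 was not called in Ifnar1 KO glands (adjusted p = 0.106, edgeR), and the calls of both genes changed with single mice left out, as given below. RefSeq entries on GRCm38.p6 covered 7 of the 10 genes, with 9 starts. The windows are the 250 bases before the start, written 5′ to 3′ along the gene's strand. They lie at chr9:106222348-106222597 (plus strand) for Tlr9, chr5:64959167-64959416 (minus strand) for a start of Tlr6 and chr9:119340019-119340268 (minus strand) for Myd88. Capitals mark matches of 4 motifs, each searched on both strands: GAAA and GAAA with any 2 bases between them (interferon-stimulated response element core), TTCNNNGAA (gamma-activated site), ATGCAAAT (the octamer bound by Oct factors) and GAGGAA (the core bound by PU.1, a factor of myeloid and B cells).
Tlr9: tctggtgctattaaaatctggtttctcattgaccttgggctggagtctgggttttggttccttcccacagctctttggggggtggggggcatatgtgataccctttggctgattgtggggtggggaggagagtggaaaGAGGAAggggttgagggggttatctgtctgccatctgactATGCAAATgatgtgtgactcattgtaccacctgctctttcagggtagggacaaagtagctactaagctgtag
Tlr6: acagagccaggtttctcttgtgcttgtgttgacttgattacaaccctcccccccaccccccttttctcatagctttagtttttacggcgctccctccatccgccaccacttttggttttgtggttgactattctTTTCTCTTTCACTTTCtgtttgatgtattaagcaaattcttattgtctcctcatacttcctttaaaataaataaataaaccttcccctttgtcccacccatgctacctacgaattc
Myd88: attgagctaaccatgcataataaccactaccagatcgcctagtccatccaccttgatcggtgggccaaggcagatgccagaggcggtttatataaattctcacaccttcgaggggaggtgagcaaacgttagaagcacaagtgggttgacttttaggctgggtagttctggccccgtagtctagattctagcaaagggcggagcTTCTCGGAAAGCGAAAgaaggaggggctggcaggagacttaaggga
The Tlr9 window holds the octamer 72 to 65 bases before the start and the PU.1 core 112 to 107 bases before it. The Tlr6 window holds the interferon element on the strand opposite to the one printed, at 116 to 107 and at 110 to 101 bases before the start, so that the matches overlap. The Myd88 window holds the interferon element 40 to 31 bases before the start, overlapping a gamma-activated site at 46 to 38. Of 32851 windows of the same length, 2.98% held the interferon element, 7.02% the gamma-activated site, 1.6% the octamer and 23.3% the PU.1 core. Of the windows of Tlr1, one held a gamma-activated site and the other a PU.1 core, that of Tlr8 held both, and those of Tlr2 and Tlr3 and of the other start of Tlr6 held none of the 4 motifs. A match describes letters and is not a measured binding site.

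Tlr7 itself (ENSMUSG00000044583, chrX:167304929-167330558, minus strand) was lower in both knockouts. It stood at 2.94, 1.52 and 2.70 CPM in WT 1 to 3, at 0.765, 0.782, 0.949, 0.494 and 0.897 CPM in Tlr7 KO 1 to 5, and at 0.612, 0.822 and 0.251 CPM in Ifnar1 KO 1 to 3. Every mouse of either knockout lay below every WT mouse, and the knockouts overlapped with each other. The log2 fold change was -1.62 (SE 0.28, adjusted p = 0.00343, edgeR) in Tlr7 KO and -2.10 (SE 0.45, adjusted p = 0.0273, edgeR) in Ifnar1 KO. The Tlr7 KO value was called whichever mouse was left out, with log2 fold changes from -1.86 to -1.45. The Ifnar1 KO call was lost when WT 1, WT 3, Ifnar1 KO 1 or Ifnar1 KO 3 was left out (adjusted p from 0.0800 to 0.0875, edgeR). Counts over the whole gene do not show a 2-base deletion, and since the Ifnar1 KO values overlapped with those of Tlr7 KO, the level of Tlr7 does not check the Tlr7 KO label. Ifnar1 likewise did not mark its own knockout, at 8.34 to 9.63 CPM in Ifnar1 KO, 8.34 to 11.2 CPM in Tlr7 KO and 10.5 to 15.1 CPM in WT.

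Tlr9, the receptor for CpG DNA (ENSMUSG00000045322, chr9:106222598-106226883, plus strand), showed the largest estimates of the 10. WT glands held 7.56, 1.60 and 6.15 CPM, Tlr7 KO glands 0.880, 2.35, 0.835, 0.782 and 1.27 CPM, and Ifnar1 KO glands 0.476, 1.01 and 0.0837 CPM. WT 2 was the low WT mouse and Tlr7 KO 2 lay above it, whereas all 3 Ifnar1 KO mice lay below all WT mice. The lowest value, in Ifnar1 KO 3, came from 2 counts. Tlr9 fell 4.22-fold in Tlr7 KO (log2 fold change -2.08, SE 0.52, adjusted p = 0.0173, edgeR) and 9.83-fold in Ifnar1 KO (log2 fold change -3.30, SE 0.82, adjusted p = 0.0381, edgeR). The first call was lost without WT 1 (adjusted p = 0.0666, edgeR) and without WT 3 (adjusted p = 0.0608, edgeR). The second was lost without any one of WT 1, WT 3, Ifnar1 KO 1 and Ifnar1 KO 3, with adjusted p from 0.0875 to 0.115 in edgeR, and also with scaling to the library total alone (adjusted p = 0.0703, edgeR) and with no gene filter (adjusted p = 0.0621, edgeR). Between the knockouts the log2 fold change was -1.20 (95% interval -2.58 to 0.19).

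The RNA receptor Tlr8 (ENSMUSG00000040522, chrX:167242696-167264329, minus strand) lies 40599 bases from Tlr7 on the X chromosome and was the least abundant member. It stood at 1.23, 0.506 and 1.15 CPM in WT, at 0.536, 0.608, 0.759, 0.659 and 0.792 CPM in Tlr7 KO, and at 0.238, 0.859 and 0.209 CPM in Ifnar1 KO. The WT range enclosed every Tlr7 KO mouse, and Ifnar1 KO 2 lay above WT 2. The log2 fold changes, -0.54 (95% interval -1.26 to 0.19) and -1.17 (95% interval -2.62 to 0.28), did not pass the test (adjusted p = 0.228 and 0.209, edgeR). These values rest on 5 to 42 counts a library. Without WT 2, Tlr8 was called in Tlr7 KO glands (adjusted p = 0.0266, edgeR). Without Ifnar1 KO 2, the log2 fold change in Ifnar1 KO was -2.11 against WT (adjusted p = 0.0627, edgeR) and -1.56 against Tlr7 KO, the latter called (adjusted p = 0.0461, edgeR).

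Tlr3, the double-stranded RNA receptor that signals without MyD88 (ENSMUSG00000031639, chr8:45395665-45411080, minus strand), had milder estimates. It was at 4.38, 2.61 and 4.92 CPM in WT, 2.41, 3.30, 3.42, 2.92 and 2.59 CPM in Tlr7 KO, and 2.45, 1.76 and 1.09 CPM in Ifnar1 KO. Only Ifnar1 KO glands were separated from WT, all 3 lying below WT 2. The log2 fold changes of -0.45 (adjusted p = 0.133, edgeR) and -1.19 (adjusted p = 0.0522, edgeR) did not pass the test. Without WT 2 both did, at adjusted p = 0.00713 and 0.0135 in edgeR. The Ifnar1 KO difference was also called by DESeq2 (adjusted p = 0.0190), by a single edgeR fit of all 11 mice (adjusted p = 0.00983) and with the second count table (adjusted p = 0.0375, edgeR), and the Tlr7 KO difference with scaling to the library total alone (adjusted p = 0.0368, edgeR). Of the 31-base words in Tlr3 transcripts, 6.10% also occur in Gm45542, an antisense gene over 381 bases of its exons, and reads there may be assigned to either.

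Unc93b1, which the endosomal receptors need to leave the endoplasmic reticulum (ENSMUSG00000036908, chr19:3935186-3949340, plus strand), was lower in both knockouts. WT glands held 44.4, 16.9 and 41.2 CPM, Tlr7 KO glands 10.98, 17.0, 10.6, 11.4 and 12.03 CPM, and Ifnar1 KO glands 8.91, 11.4 and 4.94 CPM. Tlr7 KO 2 lay just above WT 2, and every other knockout mouse lay below it. Unc93b1 fell 2.77-fold in Tlr7 KO (log2 fold change -1.47, SE 0.30, adjusted p = 0.00988, edgeR), a call kept with any mouse left out. It fell 4.15-fold in Ifnar1 KO (log2 fold change -2.05, SE 0.44, adjusted p = 0.0288, edgeR), a call lost without any one of WT 1, WT 3, Ifnar1 KO 1 and Ifnar1 KO 3 (adjusted p from 0.0803 to 0.0960, edgeR) and with scaling to the library total alone (adjusted p = 0.0691, edgeR). With up to 1509 counts a library it was the best counted of the 10 in WT.

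Myd88, the adaptor (ENSMUSG00000032508, chr9:119335934-119341411, minus strand), hardly differed between the groups. It was at 11.6, 9.06 and 11.7 CPM in WT, 10.2, 11.2, 10.1, 9.55 and 8.60 CPM in Tlr7 KO, and 9.09, 8.89 and 8.79 CPM in Ifnar1 KO. The log2 fold change was -0.13 in Tlr7 KO (95% interval -0.39 to 0.13, adjusted p = 0.435, edgeR) and -0.30 in Ifnar1 KO (95% interval -0.62 to 0.02, adjusted p = 0.159, edgeR). Without WT 2 the latter passed the test (log2 fold change -0.42, adjusted p = 0.0244, edgeR). In Myd88, 8.93% of the 31-base words occur in Acaa1a, whose exons overlap it by 290 bases on the other strand.

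Among the surface receptors, Tlr1 (ENSMUSG00000044827, chr5:64924679-64933563, minus strand), a partner of TLR2, was lower in both knockouts. It stood at 7.35, 2.91 and 5.76 CPM in WT, 1.38, 2.87, 1.06, 2.06 and 1.43 CPM in Tlr7 KO, and 1.33, 1.83 and 0.460 CPM in Ifnar1 KO. No knockout mouse reached WT 2, although Tlr7 KO 2 came close to it. Tlr1 fell 3.05-fold in Tlr7 KO (log2 fold change -1.61, SE 0.36, adjusted p = 0.0103, edgeR), a call kept with any mouse left out. It fell 4.49-fold in Ifnar1 KO (log2 fold change -2.17, SE 0.52, adjusted p = 0.0341, edgeR), a call lost when WT 1, WT 3, Ifnar1 KO 1 or Ifnar1 KO 3 was left out (adjusted p from 0.0812 to 0.0997, edgeR) and with the second count table (adjusted p = 0.0573, edgeR).

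Tlr6 (ENSMUSG00000051498, chr5:64952031-64960097, minus strand), the other partner of TLR2, lies 18467 bases from Tlr1. It was at 1.78, 0.801 and 1.99 CPM in WT, 0.765, 0.739, 0.570, 0.782 and 0.9501 CPM in Tlr7 KO, and 0.783, 0.672 and 0.126 CPM in Ifnar1 KO. WT 2 fell among the Tlr7 KO mice and just above the highest Ifnar1 KO mouse. Tlr6 fell 2.03-fold in Tlr7 KO (log2 fold change -1.02, SE 0.31, adjusted p = 0.0329, edgeR), but of the 8 fits with a mouse left out only those without WT 2 and without Tlr7 KO 5 kept the call. In the other 6, each without one of WT 1, WT 3 and Tlr7 KO 1 to 4, the adjusted p in edgeR was 0.0550 to 0.156, and the single fit of all 11 mice ended the call too (adjusted p = 0.0807, edgeR). In Ifnar1 KO the log2 fold change of -1.55 did not pass the test (adjusted p = 0.106, edgeR), but it did without WT 2 (adjusted p = 0.0399, edgeR) and in the single fit (adjusted p = 0.0308, edgeR). The 2 genes are close copies, with 607 31-base words in common, which is part of the 20.02% of Tlr1 words and 16.61% of Tlr6 words that also occur in other genes, so their counts are uncertain to the extent that reads there were split between them.

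Tlr2 (ENSMUSG00000027995, chr3:83836272-83841767, minus strand) separated from WT in Ifnar1 KO glands alone. It was at 3.76, 1.73 and 4.51 CPM in WT, 1.80, 2.65, 2.05, 2.35 and 2.27 CPM in Tlr7 KO, and 1.19, 1.46 and 0.502 CPM in Ifnar1 KO. Every Tlr7 KO mouse lay between WT 2 and WT 1, and every Ifnar1 KO mouse lay below all mice of both other groups. The log2 fold change was -0.60 in Tlr7 KO (adjusted p = 0.1202, edgeR), -1.69 in Ifnar1 KO (SE 0.47, adjusted p = 0.0453, edgeR) and -1.07 between the knockouts (95% interval -1.72 to -0.42, adjusted p = 0.106, edgeR). DESeq2 called the difference between the knockouts (adjusted p = 0.0287), and in edgeR it was called without Ifnar1 KO 2 (adjusted p = 0.0281). The Ifnar1 KO call against WT was kept without WT 2 alone, and the adjusted p was 0.0606 to 0.140 in edgeR without each of the other 5 mice. In the Tlr7 KO comparison Tlr2 was called without WT 2 (adjusted p = 0.00202, edgeR). Scaling to the library total alone called Tlr2 in Tlr7 KO (adjusted p = 0.0298, edgeR) and ended its call in Ifnar1 KO (adjusted p = 0.0622, edgeR).

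Tlr4, the lipopolysaccharide receptor (ENSMUSG00000039005, chr4:66827584-66930284, plus strand), was the one receptor with nearly the same mean in all groups. It was at 3.59, 4.72 and 3.66 CPM in WT, 4.82, 4.69, 3.23, 2.64 and 4.59 CPM in Tlr7 KO, and 3.81, 3.70 and 4.27 CPM in Ifnar1 KO, with group means of 3.99 ± 0.634, 3.99 ± 0.995 and 3.93 ± 0.303 CPM (SD). WT 2, low for the other members, was here the highest WT mouse. The 95% intervals of the log2 fold change were -0.49 to 0.49 in Tlr7 KO and -0.47 to 0.39 in Ifnar1 KO. The sign of these estimates near 0 turned under several settings, and no setting called Tlr4.

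Per kilobase of exon, the genes had a broad order of levels. In WT, Unc93b1 stood first at 11.3 ± 4.98 CPM per kb (SD, n = 3), then Myd88 at 4.19 ± 0.585, and no mouse of either overlapped with its neighbour below. From Tlr1 at 1.60 ± 0.673 through Tlr9, Tlr2, Tlr3, Tlr4, Tlr7 and Tlr6 down to Tlr8 at 0.268 ± 0.111 CPM per kb, each member overlapped with the next. In Tlr7 KO glands Unc93b1 and Myd88 overlapped, at 4.09 ± 0.865 and 3.86 ± 0.371 CPM per kb (n = 5), and the receptors ran from Tlr2 and Tlr4 at 0.738 ± 0.106 and 0.719 ± 0.179 to Tlr8 at 0.187 ± 0.0295. In Ifnar1 KO glands Myd88 was first at 3.46 ± 0.0583 CPM per kb (n = 3), Unc93b1 overlapped with it, and Tlr4 at 0.707 ± 0.0545 was the highest receptor, its mice clear of those of Tlr1, which came next at 0.360 ± 0.207.

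Summed over the 8 receptors, the level was 6.91 ± 2.55 CPM per kb in WT, 3.48 ± 0.577 in Tlr7 KO and 2.30 ± 0.764 in Ifnar1 KO. The receptors' shares of that sum overlapped in part between the groups. Tlr9 made up 19.5% ± 7.07 of it in WT, 9.68% ± 3.28 in Tlr7 KO and 5.65% ± 4.10 in Ifnar1 KO, and its lowest WT share, 11.6%, lay below the highest of Tlr7 KO, 15.2%. Tlr1 made up 22.8% ± 2.26, 14.8% ± 4.24 and 14.6% ± 4.69. Tlr4 went the other way in the means, at 12.3% ± 7.82, 20.7% ± 4.85 and 34.2% ± 16.2, with 21.3% in WT 2 inside the Tlr7 KO range. Tlr6 made up 5.84% ± 0.663, 5.95% ± 1.17 and 5.599% ± 3.06, and in single Ifnar1 KO mice 2.31% to 8.36%. Shares of a sum are tied to each other and were not tested.

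**Figure D3:**
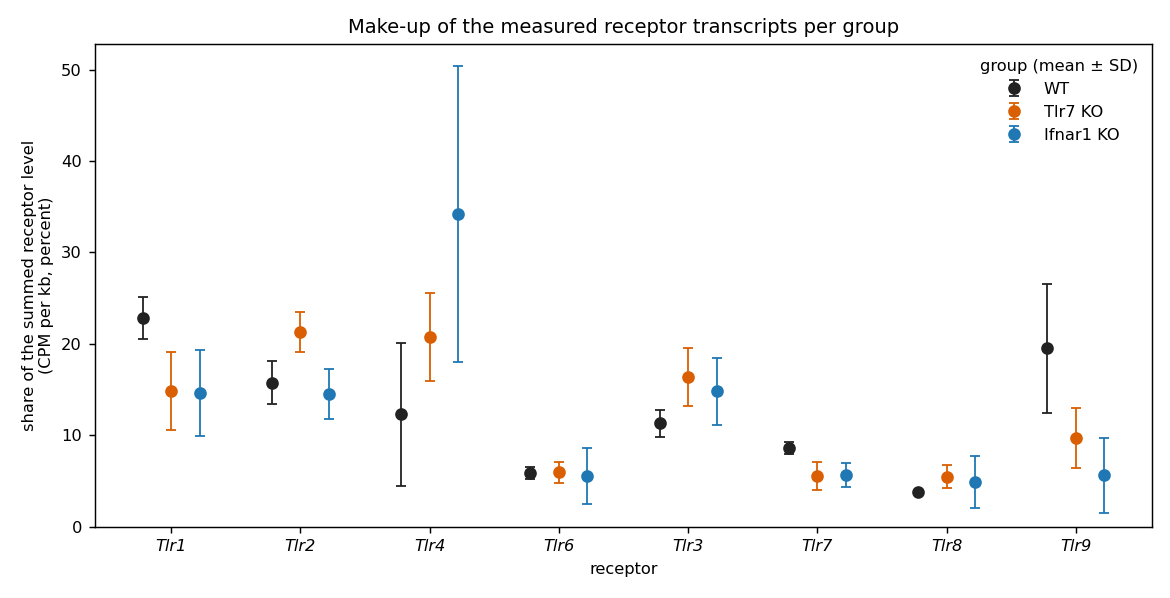
Share of each receptor in the summed level of the 8 receptors (y axis, percent of CPM per kb) by group; points are group means and bars are SD (WT n = 3, Tlr7 KO n = 5, Ifnar1 KO n = 3). The mean share of Tlr9 is 19.5% in WT and 5.65% in Ifnar1 KO, while that of Tlr4 is 12.3% and 34.2%.

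Across the 11 mice, the SD of log2 CPM was 1.55 for Tlr9, 1.07 for Tlr1, 0.94 for Tlr7 and 0.27 for Tlr4, the least variable receptor. The members most alike, by the root mean square difference of their centred log2 CPM, were Tlr1 and Unc93b1 (0.27), Tlr7 and Unc93b1 (0.30) and Tlr2 and Tlr3 (0.30). The least alike were Tlr4 and Tlr9 (1.51). Among the 11502 other genes that averaged 1 CPM or more, the genes nearest to Tlr9 were Ciita (0.17), the activator of MHC class II transcription, Tap1 (0.19), a peptide transporter of the MHC class I pathway, and Rasal3 (0.20). The nearest to Tlr1 were Csf2rb (0.24), Srgn (0.24) and Ankrd44 (0.26), and to Tlr7 they were Tec (0.22), Inf2 (0.27) and Snx20 (0.28). All these values share the 11 libraries and the split into groups.

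Markers of immune cells were examined beside the receptors. All 10 B cell markers were lower in each, beside 17.1% of all genes in Tlr7 KO and 12.1% in Ifnar1 KO, and their sum was 90.3 to 317 CPM in WT, 6.91 to 56.5 CPM in Tlr7 KO and 2.64 to 22.8 CPM in Ifnar1 KO, led in WT by Cd79a at 67.5 ± 36.9 CPM and Cd79b at 35.3 ± 17.0 CPM. Of 10 T cell markers 8 were lower in each knockout, with sums of 29.8 to 93.8, 7.10 to 36.2 and 2.09 to 17.7 CPM in WT, Tlr7 KO and Ifnar1 KO. Of 16 macrophage and monocyte markers 5 were lower and 1 higher in Tlr7 KO, and 7 lower and 1 higher in Ifnar1 KO. Their sum was 312 to 569 CPM in WT, 238 to 299 CPM in Tlr7 KO and 90.5 to 224 CPM in Ifnar1 KO, with Lyz2 at 199 ± 60.2, 134 ± 9.75 and 65.9 ± 40.5 CPM. Between the knockouts 2 of the 16, Ccr2 and Cx3cr1, were lower in Ifnar1 KO, 12.5% beside 0.768% of all genes. Of the 16, 9 had an unadjusted p under 0.05 in edgeR, and the median log2 fold change over the 16 was -0.85. No marker of the other lists was called between the knockouts. Conventional dendritic cell markers had 4 of 8 lower in Tlr7 KO glands, against 2 of 8 in Ifnar1 KO, with sums of 6.96 to 20.8, 6.38 to 9.04 and 5.02 to 8.03 CPM. Of the plasmacytoid dendritic cell markers 6 of 7 were listed, 2 were lower and 1 higher (Smim5) in Tlr7 KO and 1 lower (Pacsin1) in Ifnar1 KO, with sums of 7.21 to 15.4, 5.73 to 9.17 and 4.44 to 5.75 CPM. In Ifnar1 KO the most abundant of these markers, Smim5 and Ccr9, averaged 2.67 and 1.42 CPM, which leaves little of the sum for the others. Of the plasma cell markers 2 of 6 were lower and 2 higher in Tlr7 KO, and 1 was lower and 2 higher in Ifnar1 KO. Over all genes tested, 15.3% were higher in Tlr7 KO and 6.92% in Ifnar1 KO, and the shares lower given above hold for every list. In Ifnar1 KO 16.7% of plasma cell and 16.7% of plasmacytoid dendritic cell markers were lower, near the 12.1% of all genes. Of the macrophage and monocyte markers 6.25% were higher in each knockout. Of the other lists, plasma cell markers stood at 370 to 452, 263 to 313 and 319 to 541 CPM, the 4 of 8 neutrophil markers listed at 0.759 to 4.68, 1.03 to 2.30 and 0.795 to 2.02 CPM, endothelial markers at 17.2 to 29.99, 13.6 to 17.7 and 9.29 to 12.3 CPM, fibroblast markers at 71.5 to 125, 61.1 to 106 and 61.2 to 77.4 CPM, and adipocyte markers at 1.90 to 5.22, 1.37 to 8.74 and 1.13 to 4.33 CPM in WT, Tlr7 KO and Ifnar1 KO. No listed marker was at 3 counts or fewer in every mouse. Markers entered the tests through their WT counts, and whether single markers held few counts within a knockout was not examined. The part of these cell types in the results for the receptors was not tested.

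**Figure D4:**
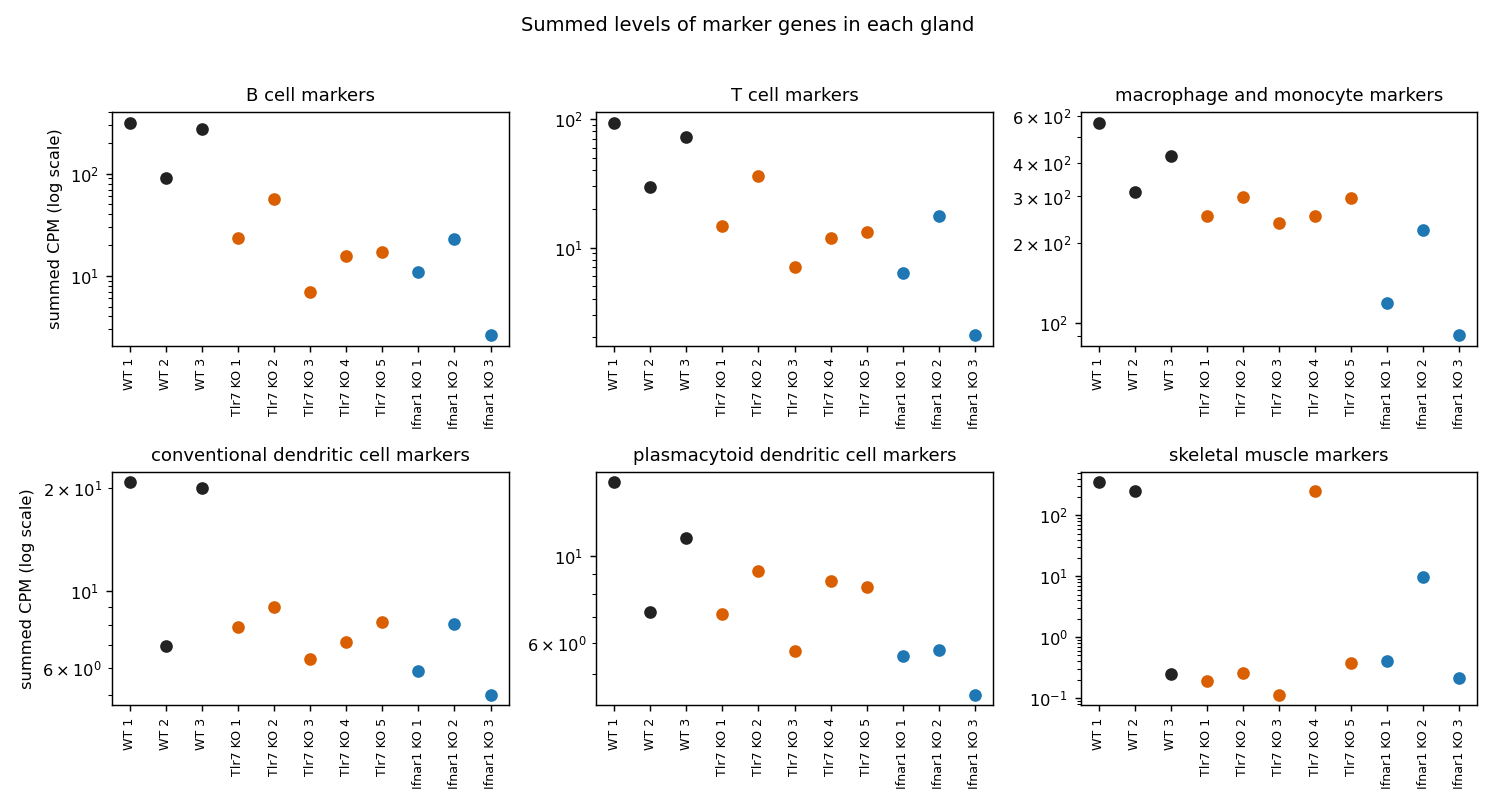
Summed TMM-scaled CPM (y axis, log scale) of 6 marker lists in each of the 11 mice (x axis), colored by group. B cell markers span 90.3 to 317 CPM in WT and 2.64 to 56.5 CPM in the knockouts, WT 2 is the lowest WT mouse in 5 of the panels, and muscle markers are high in WT 1, WT 2 and Tlr7 KO 4.

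Set against these sums, the receptors differed, and the direction depended on the list. Tlr9 amounted to 1.77% to 2.38% of the summed B cell markers in WT, 3.71% to 12.1% in Tlr7 KO and 3.17% to 4.43% in Ifnar1 KO, and was higher in every knockout mouse than in every WT mouse. Against the macrophage and monocyte markers it was at 0.514% to 1.44%, 0.308% to 0.784% and 0.0925% to 0.451%, and its Ifnar1 KO values then lay below all WT values. Tlr7 amounted to 0.487% to 0.635% of the summed macrophage and monocyte markers in WT and 0.194% to 0.399% in Tlr7 KO, without overlap, and to 0.277% to 0.513% in Ifnar1 KO, which overlapped with WT. Against the B cell markers Tlr7 was at 0.927% to 1.68% in WT, 1.38% to 13.7% in Tlr7 KO and 3.61% to 9.52% in Ifnar1 KO, where every mouse lay above WT. Against the plasmacytoid dendritic cell markers Tlr7 was at 19.1% to 24.3% in WT, 5.71% to 16.56% in Tlr7 KO and 5.66% to 14.3% in Ifnar1 KO, so that both knockouts lay below WT. Tlr9 was at 22.2% to 55.3%, 9.05% to 25.6% and 1.89% to 17.5% of that sum, with Ifnar1 KO alone below all WT mice. Tlr8 overlapped between the groups as a share of the macrophage and monocyte sum, at 0.162% to 0.269%, 0.203% to 0.319% and 0.199% to 0.384%, and so did Tlr2, at 0.554% to 1.06%, 0.7096% to 0.924% and 0.555% to 0.997%. Against the B cell markers both were higher in every knockout mouse than in every WT mouse, with Tlr8 at 0.388% to 0.560%, 1.076% to 10.99% and 2.17% to 7.94% and Tlr2 at 1.19% to 1.91%, 4.69% to 29.7% and 6.39% to 19.05% in WT, Tlr7 KO and Ifnar1 KO. Against the macrophage and monocyte markers Tlr4 was at 0.631% to 1.51% in WT, 1.04% to 1.90% in Tlr7 KO and 1.65% to 4.72% in Ifnar1 KO. These ratios were not tested.

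Of the other 4 mouse Toll-like receptors, Tlr13, an endosomal receptor for bacterial ribosomal RNA, separated the knockouts. It was at 3.42, 2.15 and 3.74 CPM in WT, 2.26, 2.52, 1.33, 1.48 and 2.38 CPM in Tlr7 KO, and 0.510, 0.672 and 0.419 CPM in Ifnar1 KO, so that the Ifnar1 KO mice lay below all 8 others. It fell 5.88-fold in Ifnar1 KO (log2 fold change -2.56, SE 0.33, adjusted p = 0.0195, edgeR) and was 3.70-fold lower there than in Tlr7 KO (log2 fold change -1.89, SE 0.30, adjusted p = 0.0143, edgeR). The latter was called in 6 of the 8 fits that left out a knockout mouse and missed without Ifnar1 KO 1 (adjusted p = 0.0623, edgeR) and without Ifnar1 KO 3 (adjusted p = 0.0562, edgeR). The call against WT was kept without WT 2 and without Ifnar1 KO 2 only, and the highest adjusted p with a mouse left out was 0.0759 in edgeR. In Tlr7 KO the log2 fold change of -0.65 did not pass the test (adjusted p = 0.0836, edgeR), but it did without WT 2 (adjusted p = 0.0149, edgeR) and with scaling to the library total alone (adjusted p = 0.0199, edgeR). As a share of the summed macrophage and monocyte markers, Tlr13 was 0.601% to 0.879% in WT, 0.559% to 0.891% in Tlr7 KO and 0.300% to 0.462% in Ifnar1 KO.

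The flagellin receptor Tlr5 rested on few counts, 12, 12 and 22 in WT, 5, 1, 0, 5 and 0 in Tlr7 KO and 1, 5 and 5 in Ifnar1 KO. Its sum of 46 counts in WT passed the minimum of 30 counts for testing, and the 11 of each knockout would not have. It is among the pathway genes called lower in Tlr7 KO, and that call was lost without WT 1 or without any one of Tlr7 KO 2, 3 and 5 (adjusted p from 0.0539 to 0.0621, edgeR), while without WT 3 the gene missed the minimum. Tlr11 and Tlr12, which bind profilin of protozoa, were not called with all mice in edgeR with TMM factors. Tlr12 was called in Tlr7 KO without WT 2 (adjusted p = 0.0104, edgeR), without Tlr7 KO 2 (adjusted p = 0.0102, edgeR), by DESeq2 (adjusted p = 0.0382) and with scaling to the library total alone (adjusted p = 0.0217, edgeR). It held 52, 11 and 62 counts in WT, 3, 23, 8, 6 and 6 in Tlr7 KO and 4, 19 and 1 in Ifnar1 KO. Tlr12 entered the tests through its WT counts, so no call of it is read in either knockout. Tlr12 was at 1.78, 0.464 and 1.69 CPM in WT, with 0.115 to 0.9996 CPM in Tlr7 KO and 0.0419 to 0.7096 CPM in Ifnar1 KO, and Tlr11 was below 0.5 CPM in every mouse.

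Around the receptors, a list of 75 other genes of the pathway was examined, 74 of which were tested. In Tlr7 KO glands 20 fell and 8 rose, which is 37.8% of the list called beside 32.5% of all genes tested. The share lower was 27% beside 17.1%, and the share higher 10.8% beside 15.3%. The 20 include Tlr5 and 5430427O19Rik, with 11 and 40 counts summed over the 5 Tlr7 KO mice, which entered the test through their WT counts. No tally without these 2 was made. The median log2 fold change over the list was -0.25. In place of these 28 calls there were 12 without WT 1, 11 without WT 3, 15 without Tlr7 KO 3 and 48 without WT 2, while 20.3%, 19.5%, 23.2% and 49% of all genes were called in those fits. In Ifnar1 KO glands 23 fell and 1 rose, 32.4% beside 19% of all genes, with a median of -0.44. The share lower was 31.1% beside 12.1%, and the share higher 1.35% beside 6.92%. The 23 include 5430427O19Rik and Socs1, at 8 and 14 counts summed over the Ifnar1 KO mice, which entered the test through their WT counts. No tally without them was made, and the shares of all genes follow the same filter. In place of these 24 calls there were 0 without WT 1, without Ifnar1 KO 1 or without Ifnar1 KO 3, 1 without WT 3 and 36 without WT 2, while 0.168%, 0%, 0%, 0.682% and 35% of all genes were called. Between the knockouts 3 were lower in Ifnar1 KO, 4.05% of the list beside 0.768% of all genes, and none was higher. Genes were tested where the WT mice held at least 30 counts in sum, and 2 of the 74 genes (Tlr5 and Tlr11) were under that sum in Tlr7 KO and 5 (these, Tlr12, 5430427O19Rik and Socs1) in Ifnar1 KO. The Tlr7 KO sums run over 5 mice rather than 3, with 5430427O19Rik at 40 counts and Tlr12 at 46. Of the 19 kinases and ligases, 31.6% were called in Tlr7 KO, near the 32.5% of all genes, and 10.5% in Ifnar1 KO beside 19%. The shares called in Tlr7 KO and Ifnar1 KO were 54.5% and 45.5% for transcription factors and 46.2% and 38.5% for trafficking genes and chaperones. They were 50% and 50% for co-receptors, 25% and 75% for endosomal proteases and 30.8% and 38.5% for negative regulators. For the other receptors they were 25% and 25%, and for adaptors 25% and 0%.

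**Figure D5:**
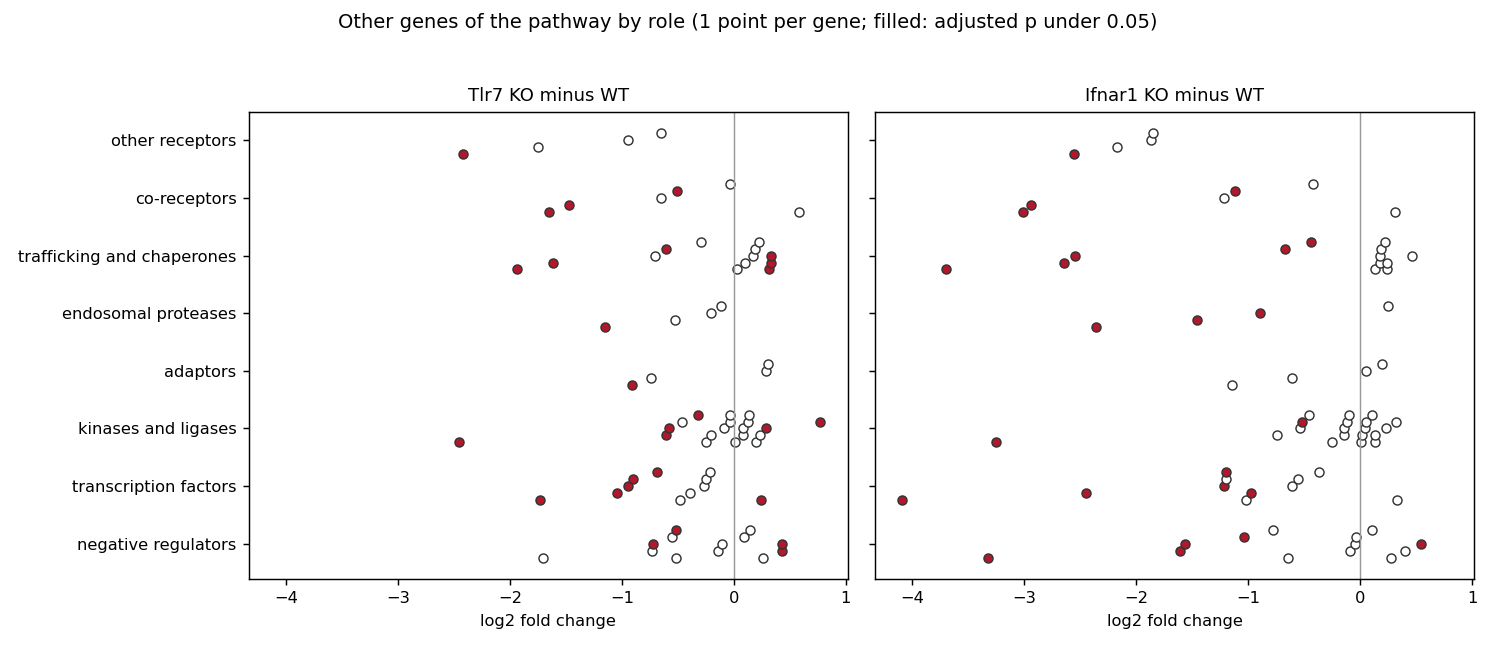
Log2 fold change (x axis) of the 74 tested genes of the wider pathway in each knockout against WT, grouped by role (y axis); each point is a gene, spread vertically for legibility, and filled points have an adjusted p under 0.05. The lowest estimates against WT are those of Btk at -2.45 in Tlr7 KO and Irf7 at -4.09 in Ifnar1 KO.

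Among the called genes of the list, Btk, a kinase of B cells and myeloid cells that signals with MyD88, was at 9.61, 3.20 and 8.39 CPM in WT, 0.700 to 2.13 CPM in Tlr7 KO and 0.293 to 1.53 CPM in Ifnar1 KO, with no overlap between WT and either knockout. It fell in Tlr7 KO (log2 fold change -2.45, SE 0.39, adjusted p = 0.00331, edgeR) and in Ifnar1 KO (log2 fold change -3.25, SE 0.67, adjusted p = 0.0276, edgeR). 5430427O19Rik, the mouse gene of the TLR adaptor TASL, is among the genes called lower in each knockout. It stood at 0.843 to 1.89 CPM in WT and at 0.165 to 0.565 CPM in Tlr7 KO. It held 34, 20 and 69 counts in WT, 8, 13, 8, 4 and 7 in Tlr7 KO and 4, 3 and 1 in Ifnar1 KO. The 40 counts of Tlr7 KO came from 5 mice, whereas the minimum of 30 was set on 3 WT mice. Since the gene entered both tests through its WT counts, no fold change is given. Irf5, the transcription factor that TASL recruits, fell by 1.73 in Tlr7 KO and by 2.45 in Ifnar1 KO on the log2 scale (adjusted p = 0.00937 and 0.0274, edgeR), with Tlr7 KO 2 at 3.82 CPM above WT 2 at 3.58 CPM.

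Ly86 and Cd180 encode the pair MD-1 and RP105, a relative of TLR4 on B cells and myeloid cells. Ly86 fell by 1.65 in Tlr7 KO and by 2.93 in Ifnar1 KO on the log2 scale (adjusted p = 0.00931 and 0.0247, edgeR). Cd180 fell by 1.47 and 3.01 (adjusted p = 0.0372 and 0.0341, edgeR). The first Cd180 call was kept only without WT 2 or without Tlr7 KO 2, and without each of the other 6 mice the adjusted p was 0.0558 to 0.140 in edgeR. Socs1, an interferon-induced inhibitor of cytokine signaling, held 73, 13 and 79 counts in WT and 3, 9 and 2 in Ifnar1 KO. It is among the genes called lower in Ifnar1 KO, but it entered the test through its WT counts, and no fold change is given. In Tlr7 KO its log2 fold change of -1.70 did not pass the test (adjusted p = 0.154, edgeR). All Ifnar1 KO calls in this and the preceding paragraph were lost without WT 1, without WT 3, without Ifnar1 KO 1 or without Ifnar1 KO 3.

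Irf7, the transcription factor that TLR7 and TLR9 use to induce type I interferon and that interferon itself induces, set the knockouts apart. It was at 30.2, 10.2 and 30.5 CPM in WT, 11.6, 32.9, 13.5, 11.9 and 20.8 CPM in Tlr7 KO, and 1.02, 2.39 and 0.837 CPM in Ifnar1 KO. Tlr7 KO 2 was the highest of all 11 mice, and the Ifnar1 KO mice lay below all others. Irf7 fell 17.0-fold in Ifnar1 KO against WT (log2 fold change -4.09, SE 0.57, adjusted p = 0.0205, edgeR) and was 12.7-fold lower in Ifnar1 KO than in Tlr7 KO (log2 fold change -3.67, SE 0.58, adjusted p = 0.0393, edgeR), while in Tlr7 KO the log2 fold change was -0.40 (95% interval -1.48 to 0.69). Slc15a3, an endolysosomal transporter, was lower in Ifnar1 KO than in Tlr7 KO (log2 fold change -1.91, SE 0.41, adjusted p = 0.0456, edgeR), with 0.238, 0.747 and 0.209 CPM against 1.22 to 2.06 CPM. The call between the knockouts was lost in 6 of the 8 fits that left out a knockout mouse for Irf7 (without Tlr7 KO 1, 3, 4 or 5 or Ifnar1 KO 1 or 3) and in 7 of 8 for Slc15a3 (also without Tlr7 KO 2), with adjusted p up to 0.160 in edgeR. It was also lost with no gene filter for Irf7 (adjusted p = 0.0580, edgeR) and in the single fit of all 11 mice for Slc15a3 (adjusted p = 0.1209, edgeR). The Irf7 call against WT was lost when WT 1, WT 3, Ifnar1 KO 1 or Ifnar1 KO 3 was left out (adjusted p from 0.0645 to 0.0759, edgeR).

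Few genes of the list rose. Map3k8, the kinase Tpl2 that acts downstream of the receptors, rose 1.71-fold in Tlr7 KO (log2 fold change 0.77, SE 0.22, adjusted p = 0.0231, edgeR) from 1.86 to 3.25 CPM in WT to 3.30 to 5.51 CPM, and was at 1.38 to 2.88 CPM in Ifnar1 KO. That call was lost without WT 1 and without Tlr7 KO 3, at an adjusted p of up to 0.0744 in edgeR, and with scaling to the library total alone (log2 fold change 0.23, adjusted p = 0.603, edgeR). Cnpy3 and Lrrc59, which assist the folding and transport of the receptors in the endoplasmic reticulum, and Irak3 and Tollip, which restrain their signal, rose 1.25-, 1.26-, 1.34- and 1.35-fold in Tlr7 KO (adjusted p = 0.00799, 0.0234, 0.0208 and 0.0176, edgeR), and Tollip rose 1.45-fold in Ifnar1 KO (adjusted p = 0.0356, edgeR). The Cnpy3 call was kept with any mouse left out. That of Irak3 was lost without WT 3 or Tlr7 KO 3, that of Lrrc59 without WT 1, WT 3, Tlr7 KO 1 or Tlr7 KO 3 and that of Tollip without WT 1 or WT 3, with adjusted p up to 0.0901, 0.0840 and 0.0704 in edgeR, and the Ifnar1 KO call of Tollip was kept without WT 2 alone. With scaling to the library total alone, the Tlr7 KO estimates of these 4 genes turned to below 0, and the Ifnar1 KO call of Tollip was lost (adjusted p = 0.406, edgeR). Of 10 lacrimal gland epithelium markers, 4 were higher in Tlr7 KO (40% beside 15.3% of all genes), 1 was lower and 5 were not called, with Lpo at 1594 ± 683 CPM in WT, 4527 ± 183 CPM in Tlr7 KO and 4753 ± 319 CPM in Ifnar1 KO. Their part in the small rises was not tested.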

How the data were processed

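RNA from whole lacrimal glands of 11 male NOD mice had been sequenced, 1 library a mouse. The authors quantified reads against the mouse transcriptome (mm10, Ensembl annotation) in salmon and collapsed transcripts into genes through tximport. The deposited table used here holds these estimated counts per gene, as whole numbers with unequal totals, although the authors call them normalized. A second deposited table holds raw counts from HISAT2 2.1.0 alignments to mm10 (tools and build also in the submitters' processing notes); its counter is not given in the sources used here. It served as an alternative, and the same mouse correlated best with itself between the tables (0.794 or more, against 0.653 or less for different mice, across genes). One column of the second table, labelled Ifnar1 KO, for which no sample is given, was not used (1 column). Whether it holds the Ifnar1 KO gland that the study had set aside was not examined.

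Genes with at least 30 counts summed over the 3 WT mice were tested (13937) with edgeR 4.0.16 in R 4.3.3: TMM factors, robust quasi-likelihood F test, each pair of groups fitted alone, with adjustment over all genes tested. Because the factors correct for composition, fold changes are relative to the median gene. CPM use a set of TMM factors over all 11 mice. Fits were first run on simulated counts with the same dispersion for every gene. That run did not cover the spread between mice seen here or the dependence of calls on single mice. Intervals are 95%. Replicate errors are between mice of a group. DESeq2 1.42.0, other scalings and filters, a fit of all mice, the second table, a replicate block and each mouse left out were the alternatives.

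Gene coordinates, exon lengths and shared words are from GENCODE M21 on GRCm38, the assembly also called mm10, and promoter sequences from RefSeq on GRCm38.p6. The 10 members and all lists were chosen with earlier results of these data known. All members are named. Of the pathway list, the text names up to 5 called genes with the largest absolute fold change in each comparison and direction, and the other receptors; Ifnar1 was added as the targeted gene. Nearest genes are the 3 with the smallest root mean square difference of centred log2 CPM (prior count 2) to each of the 3 most variable receptors. For some of the marker lists only, the most abundant genes are named.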

Additional observations from a re-analysis of the deposited data

Results flagged for a closer look

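In groups of 5 mice, a value was marked when its gap to the nearest other mouse, as a share of the group's range, exceeded the 95% critical value of Dixon's test. Of 40 groups of Tlr7 KO values examined, 5 were marked, and chance marks about 1 in 20. Tlr7 KO 2 accounts for 4 of them. In that mouse Unc93b1 was at 17.0 CPM, against 12.03 CPM in the next highest, Irf5 was at 3.82 CPM against 2.33 CPM, Tlr12 was at 0.9996 CPM against 0.317 CPM, and the summed T cell markers were at 36.2 CPM against 14.7 CPM. The fifth was Tlr7 KO 4, whose summed skeletal muscle markers were at 248 CPM while the next highest Tlr7 KO mouse was at 0.369 CPM. Groups of 3 mice, WT and Ifnar1 KO, were not examined in this way.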

How the results depend on the processing

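Under an adjusted p under 0.01, 1888, 1 and 32 genes, 2, 0 and 0 members, and 8, 0 and 0 pathway genes were called in the Tlr7 KO, Ifnar1 KO and between-knockout comparisons, in place of 4528, 2648 and 211 genes, 5, 5 and 0 members and 28, 24 and 3 pathway genes. Scaling to library totals alone shifted the median over all genes, on the log2 scale, to -0.54 in place of -0.04 in Tlr7 KO, to -0.31 in place of -0.02 in Ifnar1 KO and to 0.19 in place of -0.0011 between the knockouts. The split of lower to higher calls then became 4293 to 117 in place of 2389 to 2139, 949 to 49 in place of 1684 to 964, and 60 to 129 in place of 107 to 104. In Ifnar1 KO 998 genes, 2 members and 14 pathway genes were called. Estimates that turned were Cnpy3 at -0.18, Irak3 at -0.081, Lrrc59 at -0.15 and Tollip at -0.037 in Tlr7 KO, Cnpy3 at -0.067 and Irak3 at -0.024 in Ifnar1 KO, and, between the knockouts, Tlr4 at 0.17, Myd88 at 0.024, Cnpy3 at 0.11, Irak3 at 0.058 and Ifnar1 at 0.089. A single fit of all 11 mice called 5097 genes (2639 lower and 2458 higher) and 38 pathway genes in Ifnar1 KO and 75 genes between the knockouts, and put Tlr4 at 0.0023 in Tlr7 KO. DESeq2 called 577 genes, 1 member and 10 pathway genes between the knockouts. The second count table called 6 pathway genes there and turned Tlr4 to 0.0014 and Tlr5 to -0.065. Every other count of genes, members or pathway genes called in either direction under the filters, RLE scaling, DESeq2, the single fit or the second table stayed within 1.5 times the value reported. The cause of these differences was not tested.

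With the replicate number as a block, 17, 0 and 598 genes, 0, 0 and 1 members (Unc93b1) and 0, 0 and 10 pathway genes were called, and Tlr4 in Tlr7 KO became 0.084. These fits kept only numbers found in both groups, so Tlr7 KO 4 and Tlr7 KO 5 were left out. The effects of the block and of the smaller group were not separated. The labels number the mice and state no pairing, and whether the numbers pair them was not settled. Deviations of same-numbered mice correlated at -0.14, -0.40 and 0.03 between Tlr7 KO and WT and at -0.16, -0.44 and -0.28 between Ifnar1 KO and WT. Between the knockouts they correlated at 0.06, 0.34 and 0.26, and there each mouse matched its own number best. With 0 genes called by the block fit in Ifnar1 KO, 3875 had an unadjusted p under 0.05.

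With each mouse left out in turn, 2510 to 6609 genes, 3 to 8 members and 11 to 48 pathway genes were called in Tlr7 KO, 0 to 4718 genes, 0 to 8 members and 0 to 36 pathway genes in Ifnar1 KO, and 81 to 867 genes, 0 to 2 members and 0 to 17 pathway genes between the knockouts. Estimates whose sign turned ranged from -0.078 to 0.13 for Tlr4 in Tlr7 KO and from -0.12 to 0.085 in Ifnar1 KO. Between the knockouts the ranges were -0.14 to 0.039 for Tlr4, -0.17 to 0.0021 for Cnpy3 and -2.03 to 0.29 for Tlr12. Depth also limits the values of Tlr5, Tlr6, Tlr8, Tlr11 and Tlr12, with 0 to 73 counts a library.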
